A study of Helianthus annuus with 12 samples.

Results

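In sunflower (Helianthus annuus) 145 small interfering RNAs (siRNAs) were read in roots and in no leaf library, out of 15055 siRNAs and 15900 named small RNAs in the series. They were chosen by their counts: an siRNA belonged here when it held at least 10 reads in 3 or more of the 6 root libraries and 0 in all 6 leaf libraries. The root to leaf difference is therefore how they were found and not a result, and it is described below only by the bounds that the counts allow. Treatment was not part of the rule, but the need for 3 root libraries limits which PEG patterns could occur: an siRNA read under 1 treatment alone had to be in all 3 of its libraries. Each is known by the name the file gives it, such as novel_sir15217. Their sequences, lengths and positions were not used here, so none can be tied to a gene or a locus.

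Plant siRNAs are cut by DICER-LIKE enzymes from long double-stranded RNA, which RNA-dependent RNA polymerases make, and are loaded into ARGONAUTE proteins. The largest class comes from transposons and repeats through RNA polymerase IV and guides DNA methylation to matching loci. Others, the trans-acting and phased siRNAs, start when a microRNA cuts a precursor and go on to guide cleavage of messenger RNAs. Some siRNAs move between cells and through the phloem from shoot to root, so an siRNA read in roots need not have been made there.

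All libraries came from the sunflower cultivar R5, described by the submitters as tolerant to drought. Seedlings with 4 leaves were moved for 24 h into 15% PEG 6000, a polymer used to hold back water from roots, or into distilled water. Each of the 4 groups, PEG root, control root, PEG leaf and control leaf, held 3 libraries. The labels do not say that these came from separate plants, so p-values measure only the spread between these libraries, which may be technical. RNA was harvested with Trizol, libraries followed BGI500 protocols, and the values are raw read counts per small RNA. PEG roots held 24163833 to 27248037 counts per library, control roots 20829490 to 22433591, PEG leaves 30922418 to 33426228 and control leaves 31583451 to 33154566. In bulk tissue, fewer cells making an siRNA and less of it per cell cannot be told apart.

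No siRNA in the table had a count of 1 to 9, whereas other classes such as snoRNA did, so a 0 of an siRNA may stand for up to 9 reads. That is 0.269 to 0.291 CPM of all reads (the count scaled to the library total, in CPM) in leaves and 0.330 to 0.432 CPM in roots. The leaf libraries were deeper than every root library, so the leaf zeros were read at the greater depth.

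Control root replicate 3, the library titled C3root, stood apart. It held 1576 siRNAs above 0, against 4766 to 5289 in PEG roots and 3701 and 3381 in the other control roots. Its siRNAs made up 1.25% of all reads, against 3.44% to 3.64% in PEG roots and 2.46% and 2.59% in the other control roots. Its ribosomal RNA fragments, at 2.46% of reads, stood close to the 2.16% and 2.18% of the other control roots, against 1.16% to 1.26% in PEG roots. The TMM factor, which scales each library so that most features do not differ, was 0.295 for it, against 1.0 to 1.15 in PEG roots and 0.772 and 0.819 in the other control roots. On the TMM scale each of its counts therefore weighs more than in any other library, and results that rest on it are given with and without it.

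The edges of the choice were soft. Of the 145 siRNAs, 43 were above 0 in exactly 3 root libraries. Their single counts began at 10 and reached 64, and their median sum over the 6 roots was 45. Just outside lay 85 siRNAs above 0 in 2 root libraries and no leaf, with a median sum of 25 and single counts of 10 to 46. Another 289 were above 0 in 1 root library and no leaf. On the leaf side, 79 siRNAs of 3 or more roots missed the choice through a single leaf library, with a leaf count of 10 to 35 and a median of 12, and for 42 of them that count was 10 to 12. With at least 20 counts asked for in 3 roots, 56 siRNAs were left, and with 4 roots asked for, 102. Without control root 3, 140 met the rule in the other 5 root libraries.

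Root-only siRNAs were a small share of what roots held. They were 3.42% of the 4235 siRNAs above 0 in 3 or more root libraries. By the same rule with the organs exchanged, 3818 siRNAs were seen only in leaves, 39.5% of the 9659 above 0 in 3 or more leaf libraries. The 2 shares were read at different depths and were not compared by a test. In all, the 145 held 23696 reads in the 6 roots, 0.584% of the siRNA reads there.

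Most of them were rare, and a few held much of the signal. The mean level of a root-only siRNA over the 6 roots ran from 0.232 to 15.8 CPM of all reads, with a median of 0.616, against a median of 0.973 CPM for the other 4090 siRNAs above 0 in 3 or more roots. The highest count in any root library was 20 or less for 36 of them and above 100 for 13. The 10 with the most reads held 32.6% of all their reads. Counts of this size carry a large counting error, and reads without molecular identifiers are not independent molecules.

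The most abundant, novel_sir15217, held 690, 421 and 420 counts in PEG roots, against 181, 502 and 73 in control roots. The groups overlapped, since control root 2 lay above PEG roots 2 and 3. Its mean was 20.2 ± 6.57 CPM in PEG roots and 11.5 ± 9.97 CPM in control roots (SD, n = 3 each). novel_sir13230 held 38, 574 and 439 counts in PEG roots, against 0, 0 and 152 in control roots, so that 2 PEG libraries carried most of its reads. novel_sir16805 held 78, 303 and 315 counts in PEG roots, against 29, 45 and 89 in control roots. PEG roots 2 and 3 were high for both of these, while PEG root 1 lay below control root 3.

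The next in rank also varied between libraries. novel_sir8708 held 110, 80 and 101 counts in PEG roots, against 32, 176 and 66 in control roots, and novel_sir8709 held 78, 65 and 89, against 98, 51 and 84. For both, the lowest and the highest count were in control roots, so the groups overlapped. novel_sir8996 held 60, 116 and 107 counts in PEG roots, against 26, 52 and 128 in control roots. novel_sir7908 held 60, 94 and 48 counts in PEG roots, against 68, 37 and 137 in control roots. In both siRNAs control root 3 had the highest count of all. novel_sir14601 was the opposite, with 94, 70 and 46 counts in PEG roots, against 172, 85 and 0 in control roots, at 0 in control root 3 alone.

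**Figure D1:**
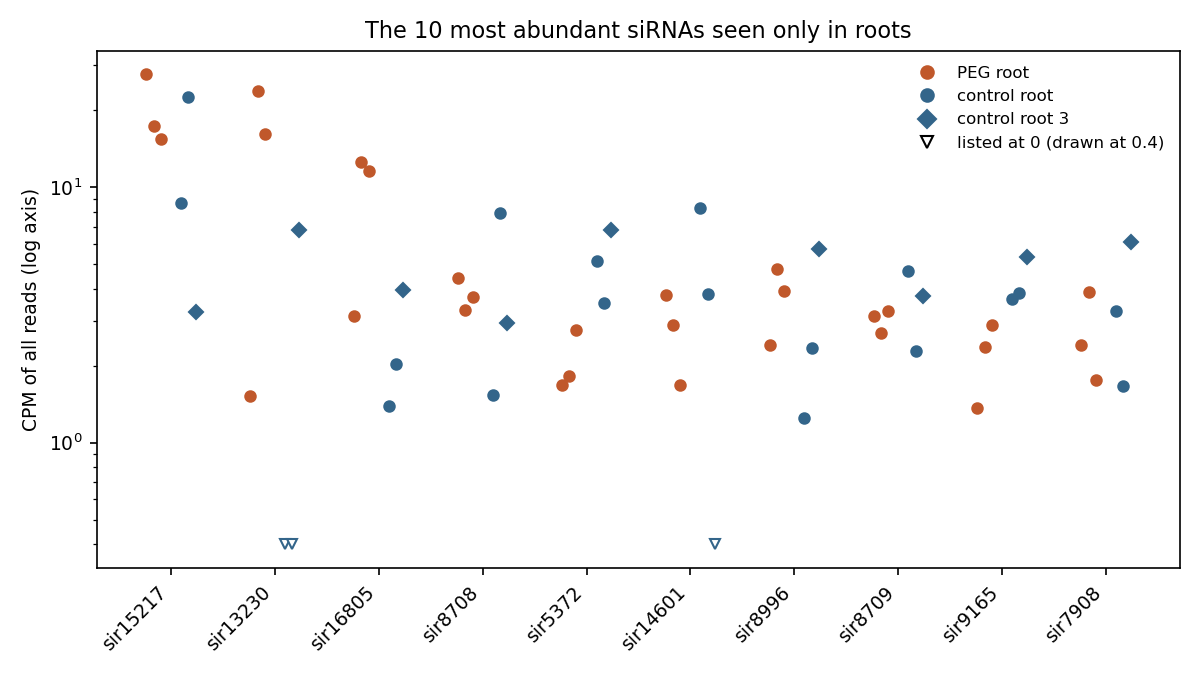
Level of the 10 most abundant siRNAs seen only in roots, in CPM of all reads on a log axis; each point is a library, with PEG roots left of control roots, control root 3 as a diamond, and a count of 0 as an open triangle drawn at 0.4 CPM. PEG and control roots do not overlap for novel_sir5372 and novel_sir9165, and control root 3 ranges from 0 (novel_sir14601) to highest (novel_sir7908).

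Presence varied between root libraries. Of the 145, 42 were above 0 in all 6 roots, 27 in 5, 33 in 4 and 43 in 3. PEG roots held 116, 130 and 130 of them, and control roots 106, 101 and 65. The median count of those present was 19, 23 and 24 in PEG roots, against 17 and 18 in control roots 1 and 2 and 40.0 in control root 3. Control root 3 thus held the fewest of them and the highest median count. It held 44.8% of the root-only siRNAs and 36.2% of the other 4090 siRNAs of 3 or more roots.

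Of the 27 siRNAs missing from a single root library, 15 were missing from control root 3, 5 each from PEG root 1 and control root 1, 1 each from PEG root 2 and control root 2, and 0 from PEG root 3. The 15 held 10 to 172 counts in control roots 1 and 2, with a median of 16, so many lay near the limit of 10 counts. A few lay well above it. novel_sir13084, singled out after its values were seen, held 137, 46 and 33 counts in PEG roots, against 73, 63 and 0 in control roots. In the other direction, control root 3 was the library with the highest level, in CPM of all reads, for 30 of the 145 and for 21 of the 42 present in all roots. PEG roots 1, 2 and 3 were highest for 25, 32 and 27 of the 145, and control roots 1 and 2 for 18 and 13. The 30 thus set control root 3 apart from the other control roots but not from PEG roots. Such counts were not taken for other siRNAs. The root-only siRNAs were thus unevenly represented in control root 3, some above and some below their level in the other control roots.

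**Figure D2:**
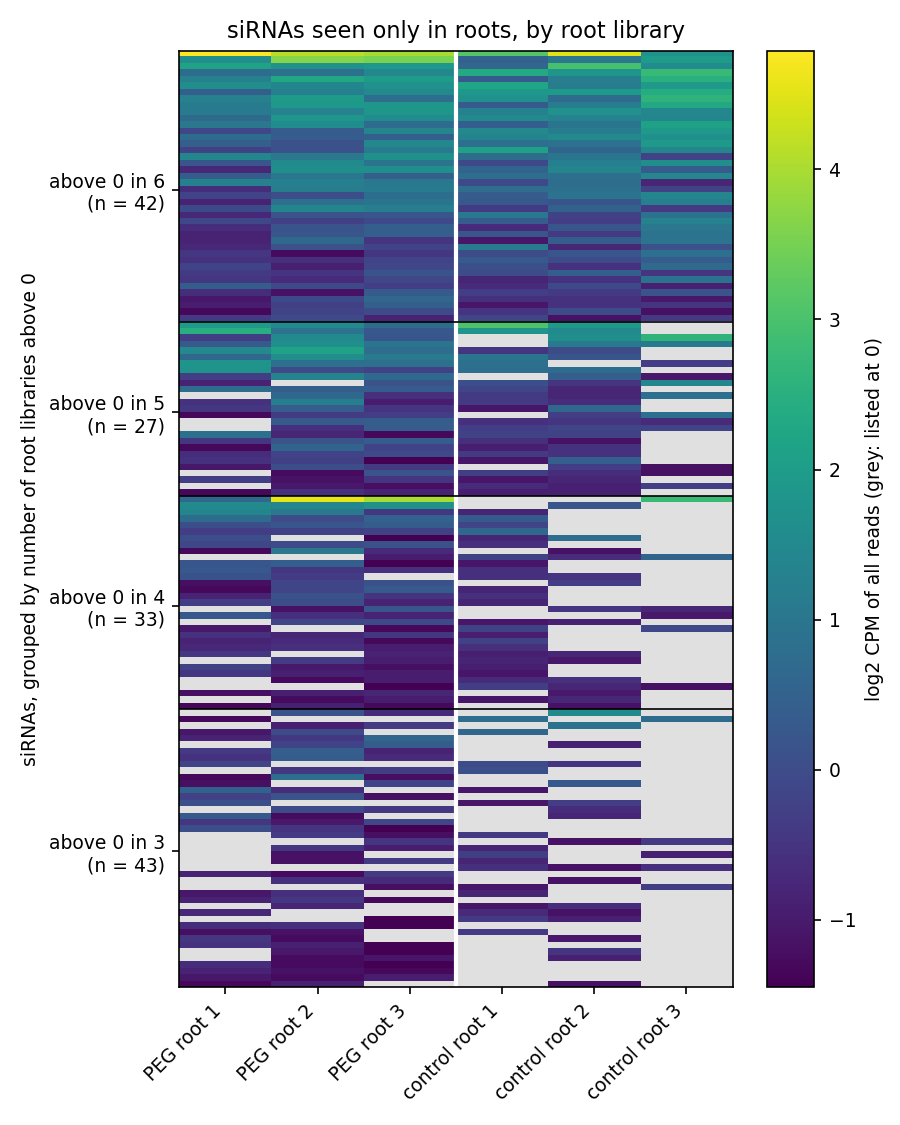
Level of each of the 145 siRNAs (rows) in each root library (columns, PEG roots left of control roots), as log2 CPM of all reads with a count of 0 in grey, grouped by the number of root libraries above 0. The 42 present in all 6 roots are also the more abundant ones, and grey cells are most frequent in control root 3, which held 65 of the 145.

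Presence in more libraries went with a higher level, as a limit of 10 counts makes it. The median level was 1.63 CPM of all reads for the 42 in all 6 roots, 0.793 for those in 5, 0.494 for those in 4 and 0.306 for those in 3. The 42 held 56.6% of all reads of the 145. Among the 42, the highest of the 6 root libraries stood 1.71 to 9.01 times above the lowest, with a median of 3.46.

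How far the roots exceeded the leaves can be given only as a lower bound, the mean root level over the level that 9 reads would have in each leaf library. A 0 in roots was counted as 0. On the TMM scale the bound ran from 1.22-fold to 95.1-fold with a median of 3.91, and with CPM of all reads from 0.827-fold to 56.6-fold with a median of 2.2. Without control root 3 the medians were 3.78 and 2.46. On all reads, 133 of the 145 had a bound above 1, 79 above 2, 35 above 5 and 11 above 10. For the other 12 the leaf zeros do not bound the difference at all. On the TMM scale the counts were 145, 120, 61 and 34, and without control root 3 they were 145, 126, 52 and 26. Within control seedlings alone the median bound on all reads was 1.84, and within PEG 2.77, each with a lowest value of 0. These are descriptions of the choice, with no test.

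The highest bounds belonged to novel_sir15217, at least 56.6-fold higher in roots on all reads and at least 95.1-fold on the TMM scale, novel_sir13230, at least 28.7-fold and 53.1-fold, and novel_sir16805, at least 20.6-fold and 37.5-fold. Within control seedlings alone their bounds on all reads were 41.3, 8.10 and 8.83, against 71.8, 49.1 and 32.3 within PEG. Without control root 3 their TMM bounds were 104, 42.3 and 32.5. At its mean root level novel_sir15217 would have left 510 reads in an average leaf library, novel_sir13230 258 and novel_sir16805 186, where each leaf library listed 0. The lowest TMM bounds belonged to novel_sir4217, novel_sir10889 and novel_sir2864, which at their root level would have left 7.56, 7.62 and 7.63 reads, under the limit of 10. Their bounds were 1.22, 1.23 and 1.23 on the TMM scale, and 0.839, 0.846 and 0.847 on all reads, so that on all reads a lower leaf level was not detectable at this depth.

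**Figure D3:**
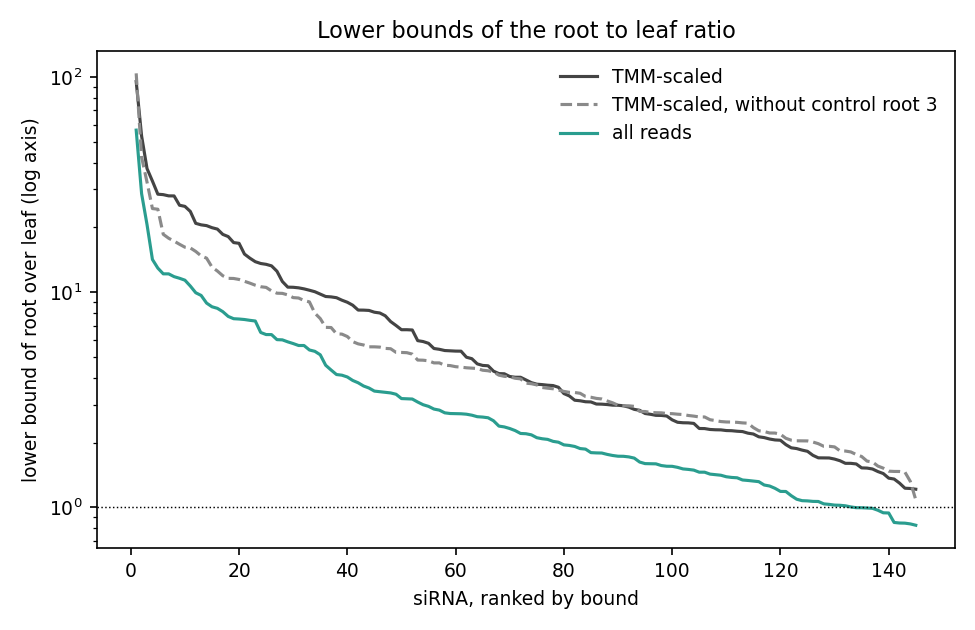
Lower bound of the root to leaf ratio (log axis) for the 145 siRNAs, ranked within each scaling; the dotted line marks a ratio of 1. All TMM bounds lie above 1, with or without control root 3, while on all reads 12 of the 145 lie at or below it. Bounds above 10 were reached by 34 siRNAs on the TMM scale, by 26 on it without control root 3, and by 11 on all reads.

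The PEG comparison asks whether root-only siRNAs respond when roots stand in PEG. In edgeR's quasi-likelihood test over all 10604 tested features, 0 of the 145 passed an adjusted p of 0.05, where 2.17% of all features did. At an unadjusted p under 0.05 there were 14 higher in PEG roots, 9.66% of the 145 against 9.11% of all features, and 8 lower, 5.52% against 2.65%. Shares over all features take in the 3818 siRNAs seen only in leaves, which are 0 in every root and cannot be called. Such shares are thus too low a background for siRNAs read in roots. The fit on roots alone tested 4541 features. DESeq2 also called 0, with no adjusted p for 57 of the 145, where it called 7.06% of the features that had one. limma voom called 14 higher (2.15% of all features) and 2 lower, novel_sir9429 and novel_sir15436 (0.123% of all features). Counts of novel_sir15436 lay near the limit, 0, 0 and 10 in PEG roots, against 17, 13 and 10 in control roots. Its adjusted p was 0.0486 by limma voom and 0.519 by edgeR. A fit on the 6 root libraries alone called 8 higher (6.12% of its features) and 0 lower. All of those called higher by limma voom or in roots alone, and all 14 above, had 0 in every control root. They belonged to the root-only siRNAs only through PEG roots, so the choice fixed this contrast for them and nothing is read from these counts.

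The test had little reach. The 95% interval of the log2 fold change extended 1.75 to either side at the median of the 42 siRNAs present in all 6 roots, and 3.79 at the median of all 145, so that a missed threshold does not show that an siRNA did not differ. The 6 leaf zeros of each add no information on its spread. Fitted log2 fold changes had a median of -0.10 over the 145, or -0.35 with those at 0 in a whole group set to their bound, against 0.00 over all features and 0.54 over the other 4090 siRNAs of 3 or more roots. All features include the 3818 siRNAs at 0 in every root, so the other 4090 are the nearer background for these medians. With library totals in place of TMM factors these medians were 0.68 for the 145, 0.58 for all features and 1.17 for the other siRNAs. The direction of the 145 as a group thus turned with the scaling, which moved the median of all features by 0.58. Under both scalings the median of the 145 lay below that of the other 4090. In the fit without control root 3 the 2 medians were -0.02 and 0.27. This difference was not tested.

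The 14 siRNAs higher at an unadjusted p under 0.05 were those read in all 3 PEG roots and in no control root, a pattern of 9.66% of the root-only siRNAs and 8.73% of the other siRNAs of 3 or more roots. Their single PEG counts were 10 to 42 with a median of 14.5. novel_sir16474 held 14, 18 and 42 counts, novel_sir7784 19, 33 and 15, and novel_sir7517 17, 32 and 17. novel_sir16398 held 21, 27 and 12 counts and novel_sir11242 18, 12 and 25, all against 0 in each control root. No adjusted p is given for these siRNAs, since they were included through PEG roots alone and the choice fixed the contrast.

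Their change can be bounded only against 9 hidden reads per control library. On all reads novel_sir16474 was at least 2.30-fold higher in PEG roots, novel_sir7784 at least 2.16-fold and novel_sir7517 at least 2.12-fold, and over the 14 the bound ran from 1.14-fold to 2.30-fold. On the TMM scale 5 of the 14 had a bound above 1, led by novel_sir16474 with at least 1.25-fold, and the other 9 had none. With 9 reads in place of each 0, PEG and control roots stayed apart for 5 of the 14 on all reads and for 0 on the TMM scale.

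The reverse pattern, all 3 control roots and no PEG root, was held by 1 root-only siRNA, novel_sir9429, and by 1 of the other 4090. novel_sir9429 held 0 in each PEG root, against 14, 10 and 15 counts in control roots, at least 1.68-fold higher in control roots on all reads and at least 3.26-fold on the TMM scale. Without control root 3 these bounds were 1.58 on all reads and 2.005 on the TMM scale, and with 2 libraries left it was not tested. It too was included through 1 treatment alone, so the choice fixed its contrast and no adjusted p is given.

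Among siRNAs present in all 6 roots, 5 of 42 (11.9%) had every PEG root below every control root on both scales, against 3.37% of the other 1334 siRNAs present in all 6 roots. novel_sir5372 held 42, 44 and 75 counts in PEG roots, against 107, 78 and 153 in control roots, a mean of 2.09 ± 0.581 CPM in PEG roots and 5.16 ± 1.66 CPM in control roots (SD, n = 3 each). Its log2 fold change was -2.34 (SE 0.71, 95% interval -4.06 to -0.61, edgeR adjusted p = 0.209). It was -1.35 without control root 3 (adjusted p = 0.314, edgeR) and -1.12 with library totals alone. By DESeq2 the adjusted p of novel_sir5372 was 0.0522, just above the threshold, and no setting run called it.

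novel_sir2610 held 42, 31 and 37 counts in PEG roots, against 53, 64 and 72 in control roots, or 1.44 ± 0.213 CPM in PEG roots and 2.88 ± 0.333 CPM in control roots. On all reads its groups were apart with small SDs, while on the TMM scale the control roots averaged 35.1 ± 23.3 CPM with control root 3 and 21.7 CPM without it. The log2 fold change was -1.94 (SE 0.59, edgeR adjusted p = 0.212), -1.21 without control root 3. novel_sir9165 held 34, 57 and 79 counts in PEG roots, against 76, 86 and 120 in control roots (log2 fold change -1.96, edgeR adjusted p = 0.311, and -1.08 with adjusted p = 0.552 without control root 3). novel_sir11929 held 18, 10 and 20 counts in PEG roots, against 21, 26 and 40 in control roots (log2 fold change -2.11, edgeR adjusted p = 0.357, and -1.10 with adjusted p = 0.675 without control root 3). The fifth, novel_sir8236, singled out after its values were seen, held 17, 16 and 24 counts in PEG roots, against 26, 22 and 29 in control roots. With library totals alone the 5 log2 fold changes lay between -1.12 and -0.49, smaller than on the TMM scale. Of the 8 siRNAs lower at an unadjusted p under 0.05, 2 were still so without control root 3.

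Over all 145, PEG roots lay below control roots without overlap for 13 on the TMM scale, 8.97% against 2.79% of all siRNAs of 3 or more roots, and above for 19, 13.1% against 17.4%. On all reads they lay below for 9, 6.21% against 1.37%, and above for 26, 17.9% against 32.4%. Without control root 3, 20 lay below (13.8% against 7.51%) and 22 above (15.2% against 18.9%) on the TMM scale. On all reads 12 lay below (8.28% against 3.14%) and 29 above (20% against 33.4%). With 9 reads behind each 0 the TMM balance turned, to 28 below (19.3% against 8.24%) and 3 above (2.07% against 5.74%). On all reads it was then 11 below (7.59% against 1.46%) and 17 above (11.7% against 29.2%). On the TMM scale 9 reads are 7.75 CPM in control root 3 and 3.44 and 3.26 in control roots 1 and 2. In PEG roots they are 2.10 to 2.32 CPM. The scale factors thus place filled zeros higher in control roots, and the turn is not read as a change. With all libraries and zeros as listed, the same 9 were below and the same 19 above on both scales. The 19 include the 14 siRNAs at 0 in every control root, and the 9 include novel_sir9429. For these the choice fixed the lack of overlap wherever zeros stand as listed, with or without control root 3. Nothing is read from them, and 8.73% of the other siRNAs of 3 or more roots held the pattern of the 14.

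Of the 26 above on all reads, 2 were present in all 6 roots, novel_sir13682 and novel_sir6678, both singled out after their values were seen. novel_sir6678 held 61, 57 and 56 counts in PEG roots, against 20, 38 and 13 in control roots, and novel_sir13682 67, 50 and 88, against 35, 44 and 20. Their groups were apart on all reads and overlapped on the TMM scale, where their log2 fold changes were 0.41 and 0.12. novel_sir11222 held 73, 64 and 91 counts in PEG roots, against 0, 26 and 0 in control roots (log2 fold change 2.50, edgeR adjusted p = 0.592). It was singled out because it passed in edgeR (adjusted p = 0.0253) without control root 2. That was the single control library that held it, so leaving it out put all control counts at 0 and fixed the contrast.

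For the 42 present in all roots no zero clouds the ratio, although a choice of siRNAs that never dropped under 10 reads leaves out strong changes. Their median log2 ratio of the mean PEG root to the mean control root was -1.22 on the TMM scale and -0.22 on all reads, and 5 and 15 of the 42 had the higher mean in PEG roots. Without control root 3 the medians were -0.35 and -0.01, with 11 and 21 of 42 higher. Both the scale and control root 3 thus moved the median. These values were not taken for the other 1334 siRNAs present in all 6 roots. They are therefore not shown to be particular to the 42.

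**Figure D4:**
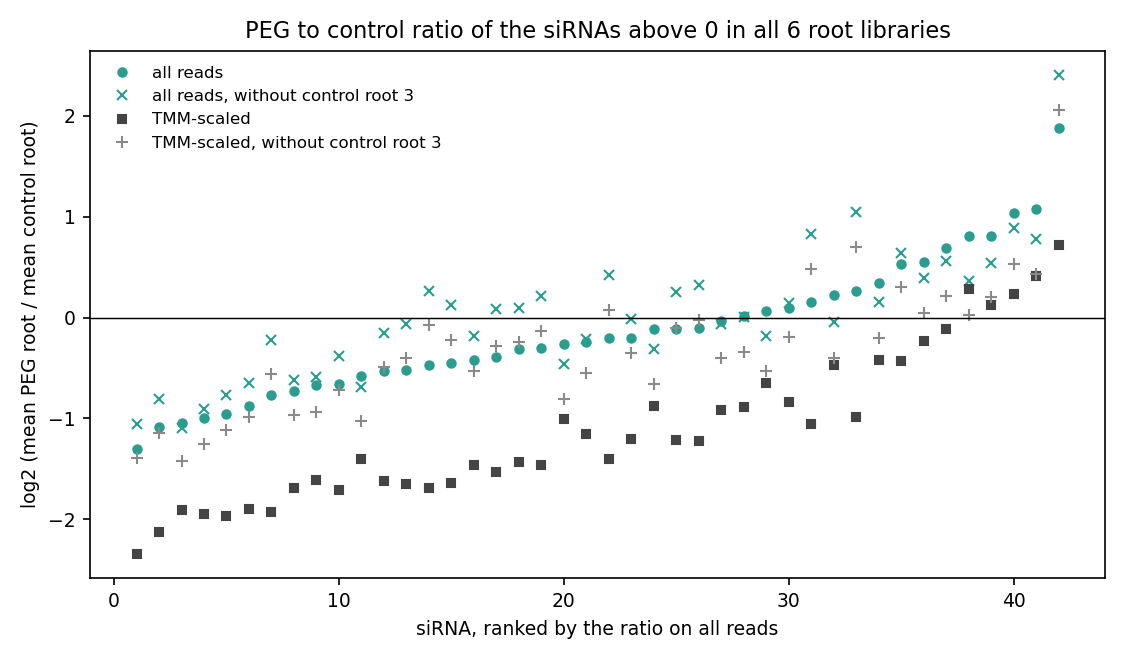
Log2 ratio of the mean level in PEG roots to that in control roots for the 42 siRNAs above 0 in all 6 root libraries, ranked by the ratio on all reads, on 2 scales and with and without control root 3. The TMM values with all libraries (squares, median -1.22) lie below the other 3 sets, whose medians are -0.22, -0.01 and -0.35.

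Summed over the 145, the same dependence showed. In CPM of all reads their sum was 158, 215 and 191 in PEG roots, against 138, 152 and 138 in control roots, so every PEG root lay above every control root (188 ± 28.5 in PEG roots and 143 ± 8.13 in control roots, SD, n = 3 each, a ratio of 1.32). Control root 3 did not stand apart here, and without it the ratio was 1.30. On the TMM scale the sum was 1016, 1323 and 1216 CPM in PEG roots, against 1097, 1224 and 2666 in control roots, a ratio of 0.713 that became 1.02 without control root 3. As a share of siRNA reads the 145 made up 0.451%, 0.592% and 0.555% in PEG roots, against 0.560%, 0.586% and 1.10% in control roots. The exact 95% binomial interval of the last, 1.07% to 1.14%, covers counting error only. Control root 3 thus held about the same root-only siRNA reads relative to all reads as the other control roots, while its siRNA reads as a whole were fewer. The sum is a description and was not tested.

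The 42 present in all roots summed to 82.0, 101 and 104 CPM of all reads in PEG roots, against 77.8, 96.3 and 104 in control roots, a ratio of 1.03. The other 103 summed to 76.3, 114 and 87.3 in PEG roots, against 60.1, 55.8 and 34.2 in control roots, a ratio of 1.85. Presence in all roots itself depends on treatment, since 14 of the 103 were in all 3 PEG roots and no control root and 22 in all 3 PEG roots and 1 control root, so these ratios are a description of the split. Without the 3 most abundant siRNAs the sums were 126, 161 and 148 in PEG roots, against 128, 127 and 124 in control roots, a ratio of 1.15, and PEG root 1 then lay below control roots 1 and 2.

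**Figure D5:**
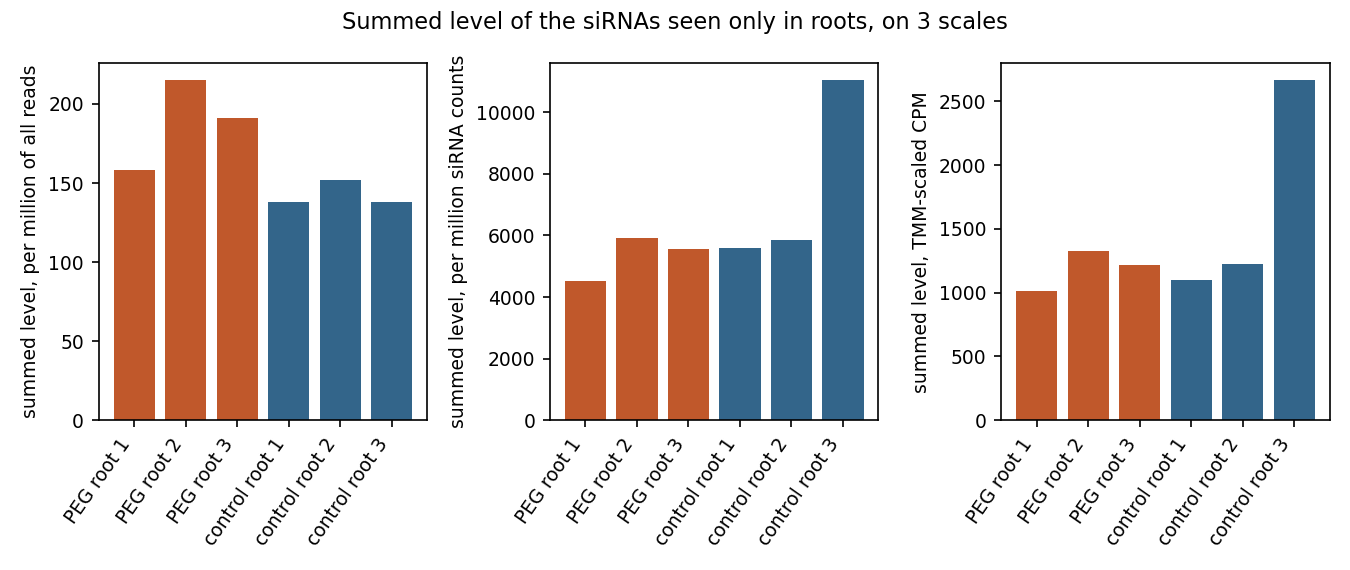
Summed level of the 145 siRNAs in each root library, PEG roots left of control roots, in CPM of all reads, in CPM of siRNA counts and in TMM-scaled CPM; each bar is 1 library. PEG roots are the higher group on all reads, and on the TMM scale control root 3 stands at 2666, against 1097 and 1224 in the other control roots.

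The numbers in the names gave one more view. Among the 145 there were 6 pairs with consecutive numbers, 12 siRNAs or 8.28%. This share was not taken for other siRNAs, so it cannot be called high or low. How the numbers were assigned is not given in the sources used here. novel_sir8952 and novel_sir8953 held 41, 86 and 80 and 53, 60 and 99 counts in PEG roots, against 61, 55 and 60 and 51, 73 and 61 in control roots, close to each other in every library. novel_sir9899 held 34, 26 and 75 counts in PEG roots, against 37, 41 and 86 in control roots, and novel_sir9900 21, 26 and 60, against 91, 33 and 59. The other pairs differed more, such as novel_sir7908 above and novel_sir7909, with 0, 38 and 18 counts in PEG roots, against 16, 13 and 40 in control roots.

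MicroRNAs that act on the small RNA machinery itself give the setting. miR162 targets DCL1 transcripts, miR168 targets AGO1, miR403 targets AGO2, and miR390 starts trans-acting siRNA production from TAS3 precursors. The table held 11 names of these families, and none of miR173 or miR828. Of the 10 tested, 0 passed in edgeR and 1, miR162-3p, had an unadjusted p under 0.05. It held 99, 309 and 16 counts in PEG roots, against 7, 5 and 2 in control roots (log2 fold change 4.08, edgeR adjusted p = 0.242, DESeq2 adjusted p = 0.0273). Its near-identical name miR162a-3p held 5, 7 and 285 counts in PEG roots, against 116, 123 and 43 in control roots. Whether the counting split reads between such close names was not tested, so both are uncertain. The median log2 fold change of the 10 was 0.37 on the TMM scale and 1.10 with library totals, against 0.00 and 0.58 over all features, which include siRNAs at 0 in every root.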

How the data were processed

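The authors deposited a table of raw counts of reads per small RNA for all 12 libraries, with the same values in TPM. A check found the deposited TPM equal to CPM of the column total in 100% of nonzero cells, within 0.0051 plus 0.01%, with 0.001 for a count of 0 and no division by length. Bowtie2 2.2.9 and Bowtie are listed per the submitters' processing notes, with no step assigned. The definition of an siRNA and the genome build were not stated there. The table had 15903 entries. 3 of them (exon, intron, intergenic), with 79.7% to 86.0% of counts, name no feature and stayed out of tests and library sizes.

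The counts were tested in R 4.3.3 with edgeR 4.0.16 (TMM factors, glmQLFit, glmQLFTest), fitting 4 group means to 12 libraries. Features with at least 10 counts in 3 libraries were tested, 10604 in all, with Benjamini-Hochberg adjustment over all of them. SE and intervals (95%) were derived from the quasi-likelihood F statistic. The fit was tested on simulated data. "All reads" means CPM of the library's column total. Leaf or group zeros were bounded with 9 reads per library. The alternatives covered scaling, DESeq2 1.42.0, voom from limma 3.58.1, other count minimums, roots alone, zeros set to 9, the replicate number as a block, and each library left out. The siRNA rows alone, and the bounds and overlaps on all reads, were added after seeing the data.

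The siRNAs, the microRNA list and the tests were chosen with earlier results of these data known. Named siRNAs were the 10 most abundant, the 5 with the smallest p in each direction where fewer than 5 were called, the 3 with most counts of those confined to PEG or control roots, and the 3 highest and lowest TMM root to leaf bounds. Clusters by position could not be used.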

Additional observations from a re-analysis of the deposited data

How the results depend on the processing

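The count of root-only siRNAs called was 0 by edgeR (22 had an unadjusted p below 0.05). It was 16 by limma voom, 8 in roots alone and 0 in the other planned and added fits, apart from 0 to 1 with single libraries left out. Leaving out a PEG root left 111 to 119 of the 145 to test. Over all features 230 were called, 424 by DESeq2, 0 with zeros set to 9, and 222 to 539 with single libraries left out. By DESeq2 1 microRNA of the small RNA pathway was called, and otherwise 0. The ratio of the summed level, 0.713, was 1.32 in CPM of all reads and 1.49 in CPM of named-feature counts, and 0.609 to 1.02 with single root libraries left out. The median organ bound, 3.91, was 11.7 with a floor of 3 reads and 2.2 on all reads. The 145 became 56 with at least 20 counts in 3 roots. With single root libraries left out there were 111 to 140. The causes were not tested.

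Of 456 values of the 21 named siRNAs under alternatives, 433 kept their direction and side of the threshold and 13 passed it newly. All 13 were of siRNAs at 0 in every control root or every PEG root, whose contrast the choice fixed. The other 10 changed sign, none with a call. Those were novel_sir15217 (-0.0273 without PEG root replicate 1, and up to 1.076 with other single libraries left out), novel_sir8708 (0.0422 with library totals, 0.0914 with TMM factors without siRNAs), novel_sir14601 (0.36 by limma voom, 0.15 without control root replicate 1, and down to -1.4048 with others left out) and novel_sir8996 (0.49 with library totals, 0.51 with TMM factors without siRNAs, 0.0397 by limma voom, 0.10 with zeros set to 9 and 0.73 without control root replicate 3, down to -1.4609 with others left out).

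Same-numbered PEG and control roots did not deviate together (correlations 0.06, -0.00 and 0.06), and not every library correlated best with its own number. With the replicate number as a block, 0 root-only siRNAs and 196 features were called. The 10-count limit means that a 0 is known only to within 9 reads.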
